A study of Mus musculus with 8 samples.

Results

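The cytosolic ribosomal protein genes were examined in mouse kidneys as 85 rows of a table of 30153 genes. The rows were chosen by name: protein-coding symbols that begin with Rpl or Rps and a digit, together with Rplp0, Rplp1, Rplp2 and Rpsa, leaving out the Rps6k kinases and every symbol that contains -ps or rt. Of the 85, 52 carry large subunit symbols and 33 small subunit symbols. The names do not all stand for core subunits. Rps19bp1 encodes a nucleolar protein that binds Rps19, at a mean of 20.1 TPM, and Rpl3l, Rpl10l, Rpl22l1, Rpl39l, Rpl7l1, Rpl36al and Rps27l are paralogues of core genes.

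The study measured kidney RNA from C57/BL6 mice carrying the human gene for angiotensin receptor type 1 as its Haplotype-II (Hap-II), and the series title calls the animals hypertensive and overexpressing. All mice received a western diet. The groups were adult and aged, with 4 animals each and 1 library per animal, and the labels give neither the ages in weeks nor a sex, and name no control without the transgene, the diet or both. Replicate numbers here were assigned in accession order. Polyadenylated RNA was sequenced and the values are TPM, shares of the transcripts in a library corrected for transcript length, so levels can be set side by side between genes but the depth behind each value is unknown.

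Ribosomal proteins assemble with ribosomal RNA into the large and small subunits that translate messenger RNA in every cell. Most of their messages begin with a C followed by a run of pyrimidines, the terminal oligopyrimidine (TOP) motif, through which LARP1 and the mTORC1 kinase adjust their translation with growth signals. Because their messages are short, abundant and stable, they have left many processed pseudogenes across mammalian genomes, which keep most of the coding sequence.

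Start regions were read from RefSeq (GRCm38.p6), which held 77 windows for 65 of the 85 genes, and 20 genes had no window. In the 6 stretches of 30 bases below, each on the transcribed strand, capitals mark the longest run of bases that are each C or T near the annotated start. They show the pyrimidine runs near the starts of genes described later, of which some begin with T or lie away from the annotated start and so do not match the definition of TOP by these letters.
Rps6: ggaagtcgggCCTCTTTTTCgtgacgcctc
Rplp2: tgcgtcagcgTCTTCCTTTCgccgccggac
Rps27: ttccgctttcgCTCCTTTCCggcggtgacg
Rpl14: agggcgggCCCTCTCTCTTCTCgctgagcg
Rpl11: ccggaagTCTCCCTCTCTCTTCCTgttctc
Rps7: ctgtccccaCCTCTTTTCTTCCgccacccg
The stretches lie at chr4:86857349-86857378 (minus strand) for Rps6, chr7:141447636-141447665 (plus) for Rplp2, chr3:90213632-90213661 (minus) for Rps27, chr9:120571501-120571530 (plus) for Rpl14, chr4:136053358-136053387 (minus) for Rpl11 and chr12:28635911-28635940 (minus) for Rps7. The run began at position -1 relative to the annotated start in Rps6 and at -2 in Rps27, whereas it began 13 bases after the annotated start in Rpl11 and 22 bases after it in Rps7. A run of 8 or more such bases within 50 bases of the start was present in 59 of 77 windows (76.6%), against 35.7% of all 32851 windows, and a C at the start followed by 4 C or T bases in 13 of 77 (16.9%), against 2.5%. Only the transcribed strand was searched. A match describes the letters and is not evidence of use.

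Kidney ribosomal protein messages were abundant. The median of the mean levels over 8 libraries was 609 TPM. Of the 85 genes, 73 had a mean of at least 100 TPM and 25 at least 1000 TPM, and the 10 highest held 33.8% of the summed level. Rps27, of the small subunit, stood highest, with 2285, 4783, 5188 and 3121 TPM in adult libraries 1 to 4 and 4889, 3083, 2719 and 2283 TPM in aged libraries 1 to 4. Rpl41, the shortest protein of the large subunit, followed with 3439 ± 1266 TPM (mean ± SD, n = 4) in the adult group and 2576 ± 897 TPM in the aged group. Next came Rps24 (2681 ± 1212 and 2377 ± 691 TPM), Rpl35a (2351 ± 858 and 2093 ± 612 TPM) and Rpl26 (2502 ± 688 and 1929 ± 698 TPM). Neighbours in this order differed by less than the SD between libraries.

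The low end held the tissue-restricted paralogues and some core genes. Rpl10l, a paralogue of Rpl10 known from testis, was listed at 0 in all 8 libraries, and Rpl39l was listed at 0 in 7 of them and at 0.0828 TPM in aged library 2. These 2 genes fell below the filter of a mean of 1 TPM, which left 83 for testing. Rpl3l, a muscle paralogue of Rpl3, averaged 2.57 TPM. The core genes Rps12 (1.52 TPM), Rpl12 (7.44 TPM) and Rpl5 (41.7 TPM) lay far below the rest of the ribosome, in which subunits are present in equal numbers. Rpsa and Rps25 were also low, at 31.2 and 14.9 TPM.

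Rps12, Rpl12 and Rpl5 had most of the TPM of gene and copies in rows under other names, unlike Rpsa and Rps25. Of the 83 genes tested, 45 had at least 1 TPM in near-identical copies, defined as rows in which at least 0.5 of the 31-base words of a transcript also occur in a transcript of the gene. Of the 249 copies in the table, 241 are annotated as pseudogenes and 8 as protein coding, and 49 averaged at least 1 TPM. For 13 genes the copies held more than 50% of the joint sum. Rps12 was listed at 0.346, 1.28, 3.84 and 2.46 TPM in the adult and 2.44, 0, 1.84 and 0 TPM in the aged libraries, while its copy Rps12-ps3 averaged 964 TPM, so that 99.8% of their sum lay in copies. For Rpl12 this share was 99.2%, mostly in Gm10275 (873 TPM), for Rpl5 97.2%, in Gm15500 (1465 TPM), and for Rpl10a 88.4%, in Rpl10a-ps1 (628 TPM). For Rpsa it was 5.43% and for Rps25 3.36%.

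**Figure D1:**
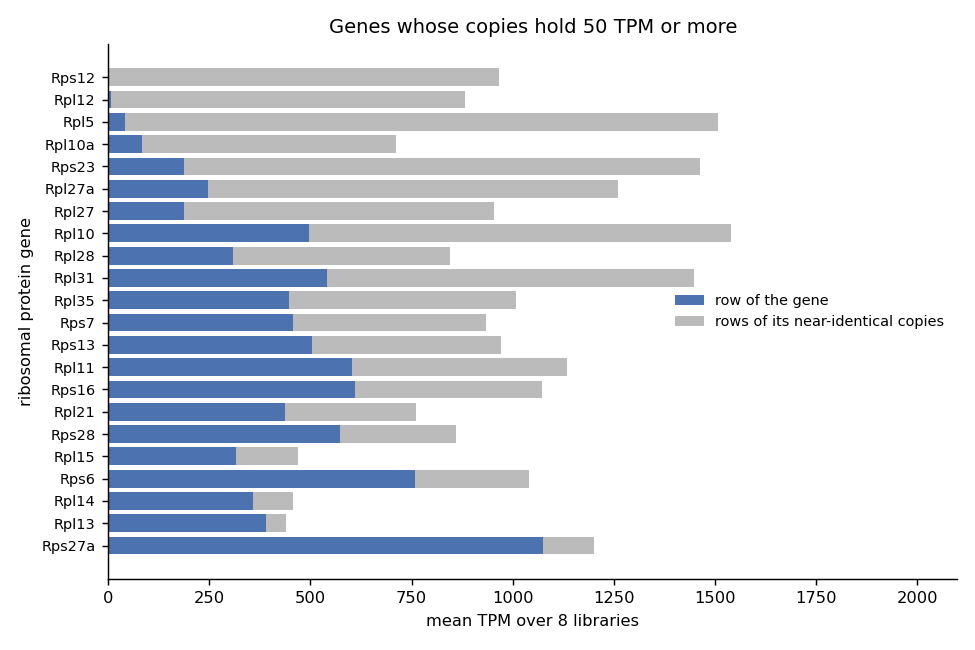
Mean TPM over 8 libraries (x axis) of the ribosomal protein genes whose copies hold 50 TPM or more (y axis), ordered by the share of the sum in copies; blue is the row of the gene and grey the rows of its near-identical copies. Rps12, Rpl12 and Rpl5 have almost all of their sum in copies, whereas Rps27a keeps most of it in its own row.

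The coding sequences show how close some copies are. The lines below are the gene and its copy over 60 bases of coding sequence, with differing bases in capitals. Rps7 (chr12:28630854-28635953, minus strand) and its copy Gm6472 (chrX:152909505-152910155, minus) are shown from the start codon, and Rpl11 with Gm10288 from coding base 27.
Rps7: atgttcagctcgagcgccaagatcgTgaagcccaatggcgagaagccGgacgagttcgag
Gm6472: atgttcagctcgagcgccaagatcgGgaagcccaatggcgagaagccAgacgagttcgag
Rpl11: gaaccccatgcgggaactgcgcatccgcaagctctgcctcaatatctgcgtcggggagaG
Gm10288: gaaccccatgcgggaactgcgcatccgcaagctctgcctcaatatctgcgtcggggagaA
Rps7 and Gm6472 differ at 3 of 582 coding bases, and Rpl11 and Gm10288 at 1 of 534. Rpl5 and Gm15500 have no difference over 891 bases, nor do Rps12 and Rps12-ps3 over 396 or Rpl12 and Gm10275 over 495. Gm11518 and Rpl27-ps3, copies of Rpl27, had the same value in each of the 8 libraries (305 TPM in adult library 1, 244 TPM in aged library 4). How reads that match several rows were divided is not given in the sources used here, so levels of these genes and of their copies are uncertain taken singly. Adding the copies left 8 genes under 100 TPM, among them Rpsa and Rps25.

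In the aged kidneys the summed ribosomal protein level was lower on average, and the groups overlapped. The 85 genes together took 6.07, 9.0, 8.88 and 6.22% of the TPM scale in adult libraries 1 to 4 and 8.39, 5.77, 4.62 and 4.64% in aged libraries 1 to 4. Aged library 1 thus lay among the adults, and adult libraries 1 and 4 lay near aged library 2. The means were 7.54 ± 1.62% and 5.86 ± 1.77% (SD, n = 4), a difference of -1.69 percentage points (SE 1.20). That difference was similar in size to the SD between animals of each group, and it was not tested. Large subunit genes gave 4.01 ± 0.817% and 3.05 ± 0.91%, and small subunit genes 3.53 ± 0.806% and 2.81 ± 0.863%. In whole kidney, fewer cells of a type with many ribosomal messages and less of these messages per cell cannot be told apart.

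Mitochondrially encoded RNA moved the other way. The 13 proteins encoded in the mitochondrial genome took 20.9, 19.6, 24.5 and 26.1% of the TPM scale in the adult and 32.9, 26.8, 46.9 and 37.1% in the aged libraries. The groups did not overlap, although 26.1 and 26.8% were close. Since TPM is a share of a fixed whole, a larger mitochondrial share leaves less for all other genes. Relative to the remaining TPM, the 85 genes took 8.44, 12.4, 12.8 and 9.17% in the adult and 13.8, 8.68, 9.60 and 8.18% in the aged libraries. These means were 10.7 ± 2.22% and 10.1 ± 2.56%, an aged to adult ratio of 0.941, compared with 0.776 for the shares of all TPM.

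**Figure D2:**
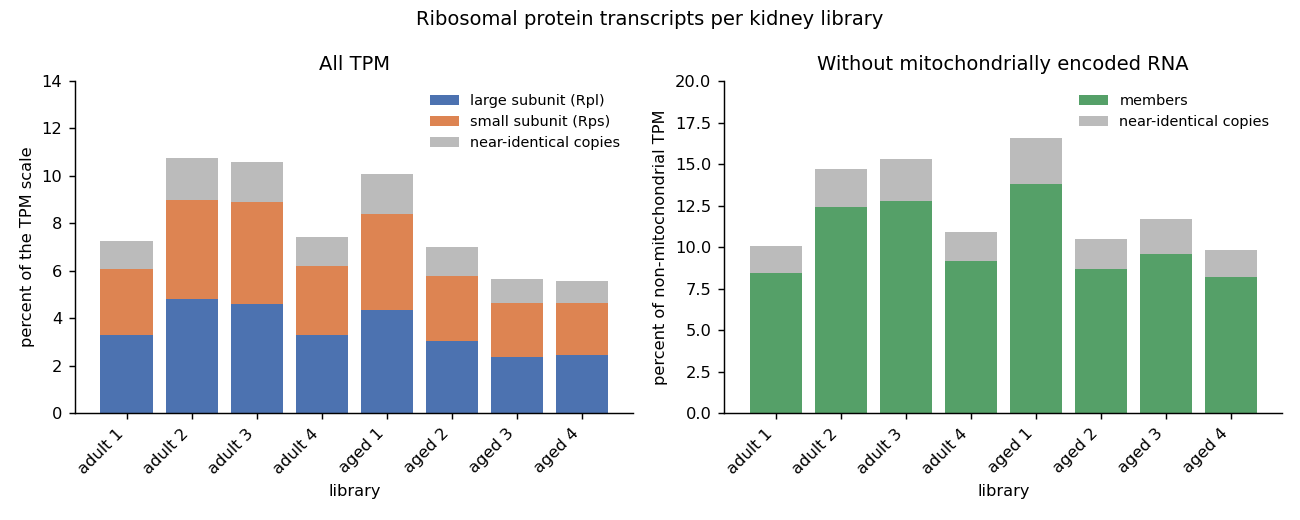
Share of the TPM scale (left, percent) and of the TPM outside the mitochondrially encoded proteins (right, percent) in each of the 8 libraries, as stacked bars for large subunit genes, small subunit genes and near-identical copies on the left, and for all 85 genes and copies on the right. On the left aged libraries 2, 3 and 4 are the lowest for the 85 genes (5.77, 4.62 and 4.64%), and on the right aged library 1 is the highest (13.8%).

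Age made no difference that passed the test for any single ribosomal protein gene. With limma on log2(TPM + 1), 0 of 83 had an adjusted p under 0.05, as had 0 of all 11796 genes tested (0%), and each of the 83 had an adjusted p of 1.00. At an unadjusted p under 0.05 limma found 400 of all genes and 6 ribosomal protein genes, all 6 lower in aged kidneys, where the share of genes lower at that level was 2.76%. An exact permutation test over the 70 assignments called 0 genes. Its smallest possible two-sided p is 0.0286, which cannot pass the adjustment over all genes.

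The fold changes leaned one way. Of the 83, 80 were negative, against 65% of all genes tested, with a median of -0.40 against -0.11 on the log2(TPM + 1) scale, which understates changes of low genes. Large subunit genes had a median of -0.42 (49 of 50 negative) and small subunit genes of -0.38 (31 of 33). The 83 values ran from -0.85 for Rpl36 to 0.42 for Rps15a. Other scalings shift all genes together: with size factors 76 were negative and the median was -0.28 (all genes -0.01), with quantile normalization 60 and -0.10 (all genes 0.01), and with mitochondrial genes removed 62 and -0.10 (all genes 0.15). The median of the 83 minus that of all genes was -0.29 as deposited, -0.27 with size factors, -0.25 with mitochondrial genes removed and -0.11 with quantile normalization.

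**Figure D3:**
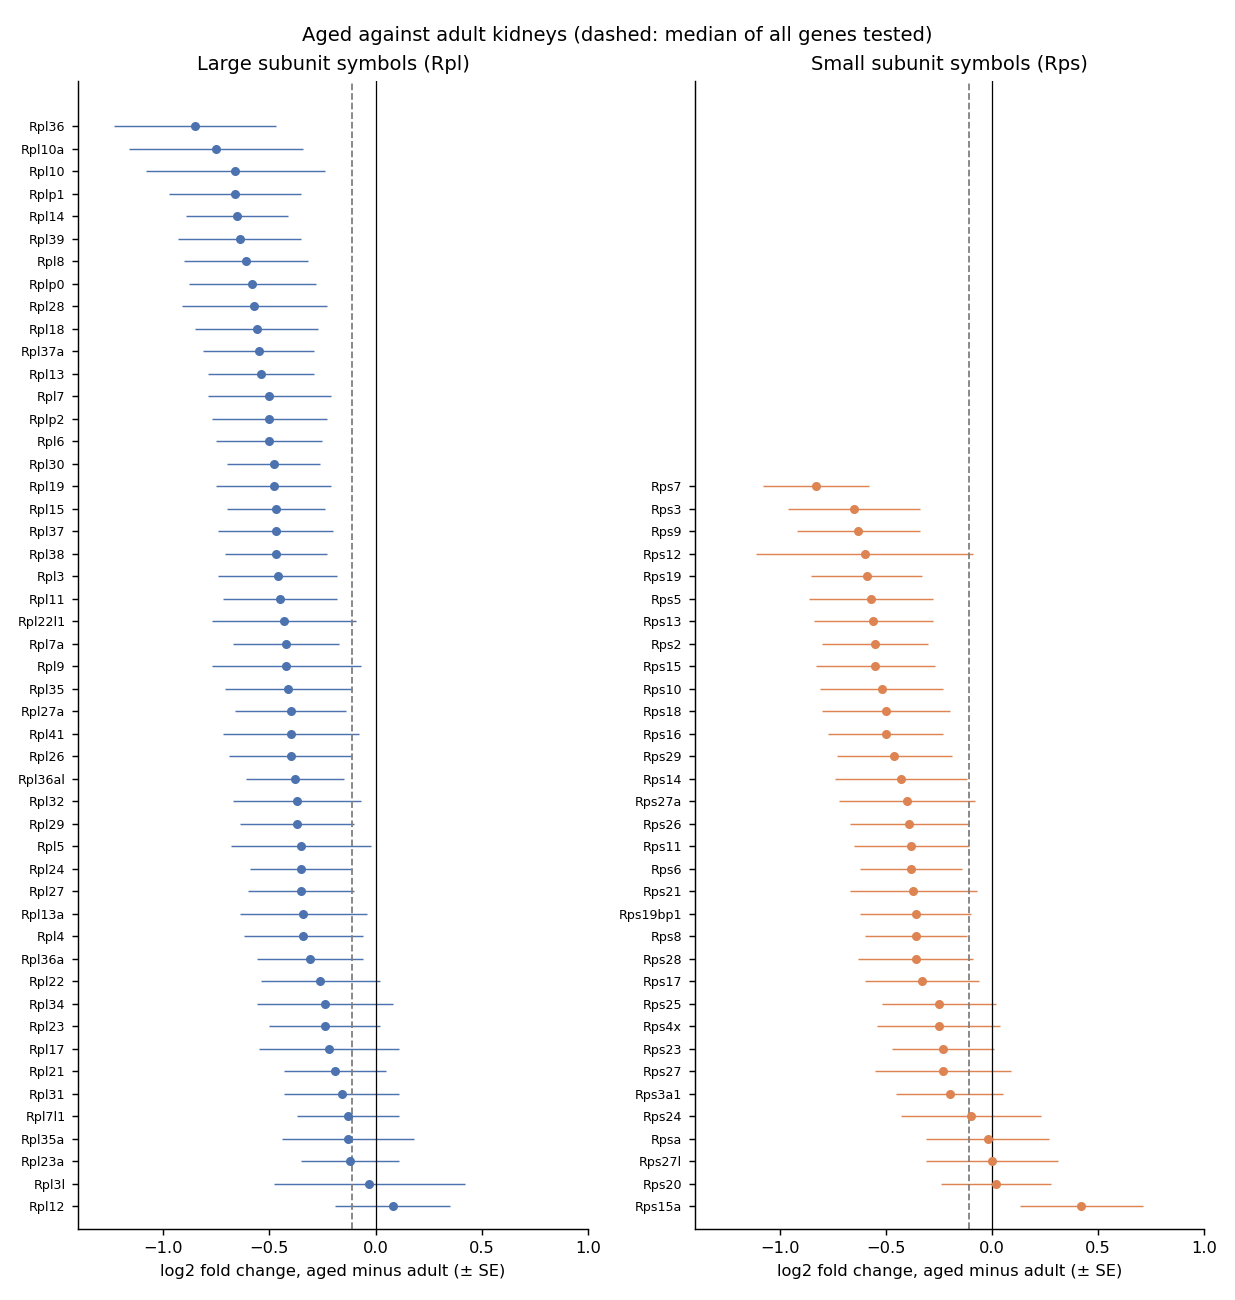
Log2 fold change, aged minus adult, on the log2(TPM + 1) scale (x axis; bars are ± SE of the limma fit over 8 libraries) for the genes tested (y axis; not every gene is drawn), with large subunit symbols on the left and small subunit symbols on the right; the dashed line is the median of all genes tested, -0.11. Rpl36 lies lowest and Rps15a, Rpl12 and Rps20 are above 0.

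Among small subunit genes, Rps7 had the smallest p. Rps7 encodes a subunit needed to process small subunit ribosomal RNA. It measured 463, 691, 646 and 527 TPM in the adult and 443, 298, 239 and 344 TPM in the aged libraries, for a log2 fold change of -0.83 (SE 0.25, unadjusted p = 0.00634, adjusted p = 1.00 by limma). Every aged value lay below every adult value, although the nearest of them, 443 and 463 TPM, were close. On the deposited TPM scale, groups were separated in this way for 3 of the 83 genes (Rps7, Rpl14 and Rpl30), and for 2.11% of all genes.

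Rps7 and Rpl14 lost this separation when their copies were added. Gm6472 read 273, 462, 573 and 334 TPM in the adult and 910, 650, 369 and 246 TPM in the aged libraries, with 2 aged values above all adult values. Rps7 with its copies averaged 993 ± 231 and 875 ± 358 TPM, a log2 fold change of -0.24 (SE 0.30). Rpl14, a large subunit protein, measured 460, 504, 408 and 364 TPM in the adult and 359, 315, 195 and 254 TPM in the aged libraries (log2 fold change -0.65, SE 0.24, unadjusted p = 0.0213, adjusted p = 1.00 by limma). Its copy Rpl14-ps1 read 36.0, 72.5, 54.6 and 59.1 TPM in the adult and 172, 176, 126 and 97.7 TPM in the aged libraries, every aged value above every adult one, with a log2 fold change of 1.35 (SE 0.29, unadjusted p = 0.00058, adjusted p = 1.00 by limma). Rpl14 with all its copies averaged 489 ± 65.0 and 424 ± 103 TPM, and its fold change was -0.23.

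**Figure D4:**
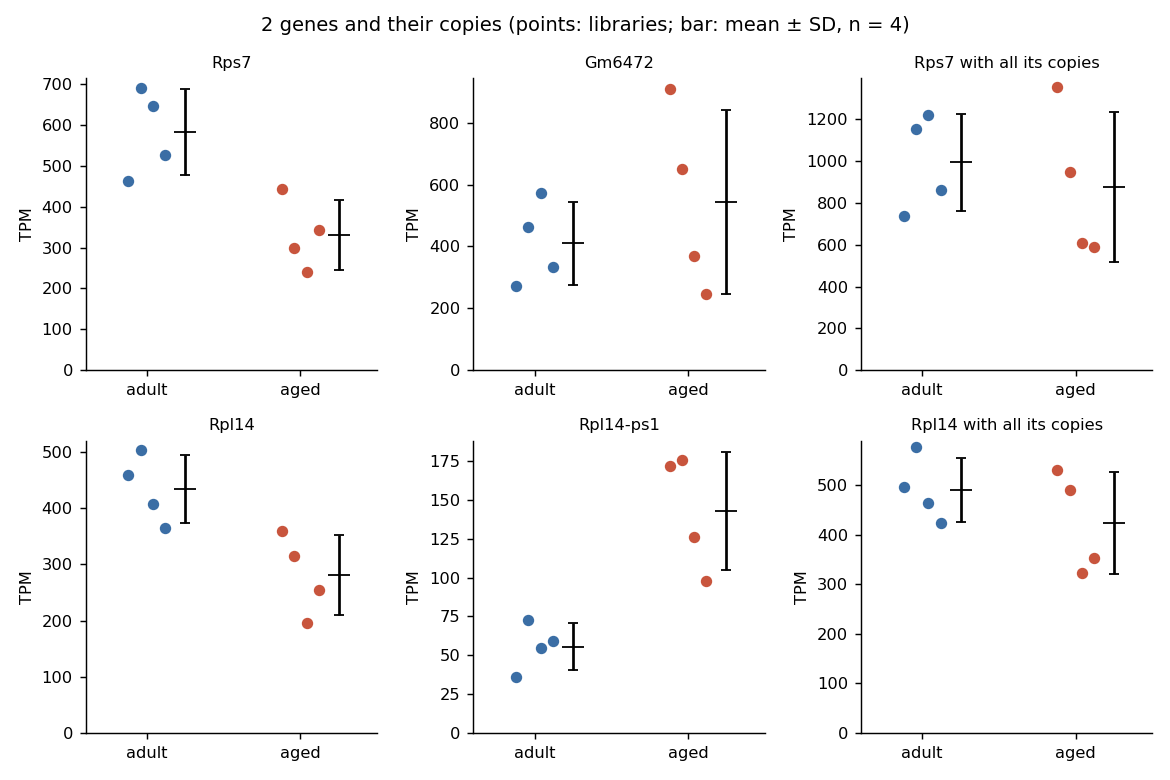
TPM (y axis) of Rps7 and Rpl14, of a near-identical copy of each, and of each gene with all its copies, in the adult and aged groups (x axis); points are libraries and the bar is the mean ± SD of 4. Aged points lie below adult points for each gene alone, above them for Rpl14-ps1, and for both sums the groups overlap, with some aged points outside the adult range.

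Rpl30 was the gene whose separation did not turn on copies, which held 0.167% of its sum. Rpl30 encodes a large subunit protein that also binds RNA elements of selenoprotein messages. It measured 700, 745, 599 and 597 TPM in the adult and 578, 524, 370 and 440 TPM in the aged libraries (log2 fold change -0.48, SE 0.22, unadjusted p = 0.0501, adjusted p = 1.00 by limma). The lowest adult and highest aged values were close. They are shares of all TPM, of which mitochondrial RNA took more in the aged libraries. Whether the groups stay apart relative to the remaining TPM was not tested. With copies added to all genes, Rpl30 was the 1 member with groups apart, against 2.09% of all genes. The median of the 83 was then -0.37 with 81 negative. By limma 7 of the 83 had an unadjusted p under 0.05 with copies (3.41% of all genes), and 0 passed. Among them was Rpl13, with a log2 fold change of -0.70 with copies and -0.54 alone.

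Without copies, the other genes with an unadjusted p under 0.05 overlapped between groups. Rps19, the gene most often mutated in Diamond-Blackfan anaemia, read 1181, 1617, 1693 and 1202 TPM in the adult and 1471, 868, 810 and 736 TPM in the aged libraries, a log2 fold change of -0.59 (SE 0.26). Rpl36, a large subunit protein, read 936, 1262, 1277 and 985 TPM in the adult and 1244, 787, 286 and 506 TPM in the aged libraries, a log2 fold change of -0.85 (SE 0.38). In both, aged library 1 lay with the adults and the other 3 aged libraries lay below every adult. Rps2, at the messenger RNA entry channel, read 1123, 1198, 772 and 798 TPM in the adult and 818, 762, 484 and 592 TPM in the aged libraries. Rpl39, at the peptide exit tunnel, read 601, 1156, 1151 and 703 TPM in the adult and 839, 500, 489 and 459 TPM in the aged libraries. Their log2 fold changes were -0.55 (SE 0.25) and -0.64 (SE 0.29). Just above that p lay Rps9, with a log2 fold change of -0.63, Rpl13 with -0.54 and Rpl37a with -0.55.

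The stalk proteins recruit translation factors to the large subunit, and all 3 had negative fold changes. Rplp0, the stalk base, averaged 1095 ± 266 and 761 ± 297 TPM in the adult and aged groups, a log2 fold change of -0.58. Rplp1 averaged 1222 ± 247 and 811 ± 325 TPM (-0.66), and Rplp2 averaged 740 ± 118 and 541 ± 177 TPM (-0.50). In each, aged libraries 3 and 4 lay below every adult library and aged library 1 lay among the adults.

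Rpl5 and Rpl11 bind a small ribosomal RNA and, outside the ribosome, the p53 regulator Mdm2. With copies, Rpl5 averaged 1743 ± 604 and 1272 ± 410 TPM (log2 fold change -0.44) and Rpl11 averaged 1253 ± 322 and 1016 ± 299 TPM (-0.31). The values that follow are of the gene's own row unless copies are named. Rps6, the subunit phosphorylated downstream of mTORC1, averaged 855 ± 150 and 664 ± 167 TPM (-0.38). With copies, Rps6 averaged 1130 ± 227 and 954 ± 274 TPM (-0.27). Rps3, at the messenger RNA entry site, averaged 514 ± 120 and 342 ± 148 TPM (-0.65). Rps27a, made as a fusion with ubiquitin, averaged 1229 ± 447 and 921 ± 325 TPM (-0.40), and 1357 ± 408 and 1047 ± 276 TPM with copies (-0.36). Rpsa, also known as a laminin receptor, averaged 30.8 ± 5.32 and 31.5 ± 11.0 TPM (-0.02). All of these ranges overlapped between groups.

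Only Rps15a, Rpl12 and Rps20 had a positive fold change. Rps15a, of the small subunit, read 703, 1295, 1722 and 921 TPM in the adult and 1896, 1367, 1266 and 1394 TPM in the aged libraries (log2 fold change 0.42, SE 0.29, unadjusted p = 0.176 by limma). Adult libraries 1 and 4 lay below all 4 aged values and adult library 3 above 3 of them. Copies held 0.083% of its sum. Rpl12 had 0.08 alone and -0.42 with its copies, and Rps20 had 0.02.

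The paralogues overlapped between groups. Rps27l, a p53-induced paralogue of Rps27, averaged 1008 ± 431 and 959 ± 217 TPM in the 2 groups, Rpl22l1 averaged 309 ± 140 and 221 ± 73.7 TPM, and Rpl36al averaged 624 ± 153 and 467 ± 35.9 TPM. Rpl7l1 averaged 32.3 ± 5.40 and 29.4 ± 5.53 TPM. Rps4l, whose row is not annotated as protein coding, averaged 12.9 ± 5.67 and 6.58 ± 1.74 TPM (log2 fold change -0.81, adjusted p = 1.00 by limma). Of 18 genes listed as mutated in Diamond-Blackfan anaemia, 18 had a negative fold change and 0 passed. That share is near the 80 of 83 for all ribosomal protein genes tested, against 65% of all genes.

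Most ribosomal protein genes moved together from library to library. Over 8 libraries the median Pearson r of the 3403 pairs of genes was 0.734 and 93.9% of pairs were above 0. Among the 73 genes of at least 100 TPM the lowest r was -0.802. These values are a description, since all genes share libraries and the TPM scale. Pairs among all genes were not measured for comparison. Relative to its own mean, the median gene stood at 0.04, 0.47, 0.38 and -0.01 (log2) in adult libraries 1 to 4 and at 0.33, -0.15, -0.52 and -0.44 in the aged ones. In adult library 2 and aged library 1, 81 and 80 of 83 genes were above their own mean, and in aged libraries 3 and 4, 4 and 3 were. The same median over all genes tested was 0.46, 0.16, -0.37 and -0.06, then -0.02, 0.32, -0.46 and -0.04.

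**Figure D5:**
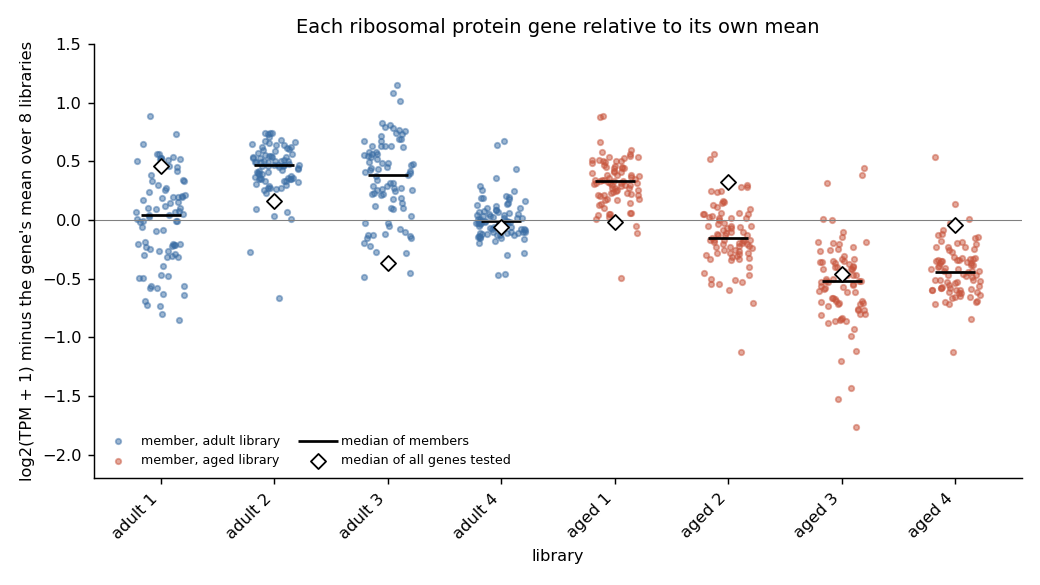
Log2(TPM + 1) of each of the 83 genes minus its mean over 8 libraries (y axis) in each library (x axis); dots are genes, the black line is their median and the white diamond the median of all genes tested. Adult library 2 and aged library 1 sit above 0 (medians 0.47 and 0.33) and aged libraries 3 and 4 below it (-0.52 and -0.44).

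A second pattern separated libraries among the ribosomal protein genes, with the median of all genes running the other way at its ends. After each library was centred on its own ribosomal median, 1 axis held 53.9% of the remaining variance. Adult library 1 (-0.65) and aged library 2 (-0.26) lay at one end, and adult library 3 (0.51) and aged library 3 (0.49) at the other. In that order of libraries, the median over all genes tested, relative to their own means, was 0.46, 0.32, -0.37 and -0.46. Whether the axis is particular to ribosomal protein genes was not tested. Rpl28, Rpl10, Rps26, Rpl4, Rplp1 and Rps29 lay at the first end and Rps27l, Rpl22l1, Rps24, Rpl17, Rps15a and Rpl41 at the second among genes of at least 100 TPM. Rpl4 read 589, 516, 329 and 404 TPM in the adult and 407, 486, 229 and 349 TPM in the aged libraries, and Rps27l read 567, 1005, 1593 and 865 TPM, then 1091, 687, 1170 and 887 TPM. Across the 73 genes of at least 100 TPM, which are not independent replicates, the position on this axis had r = -0.395 with the GC content of the transcript and -0.0719 with its length.

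Summed Y-linked transcripts split both groups alike, with replicates 1 and 2 under 10 TPM and replicates 3 and 4 above. Comparing the aged with the adult libraries under 10 TPM, the median of the 83 genes was -0.14 with 59 negative (all genes -0.17), and 0 of them had an unadjusted p under 0.05 by limma (2.48% of all genes). Among those above 10 TPM, the median was -0.68 with 82 negative (all genes -0.04), 43 had an unadjusted p under 0.05 (5.8% of all genes), and Rpl36 alone passed by limma (log2 fold change -1.56, adjusted p = 0.0278), where 60 genes (0.536%) passed in all. These fits compare 2 libraries with 2. The test of the difference between these fold changes passed for 0 of the 83 genes and for 4 of all genes, although 80 differences were negative, with a median of -0.53 against 0.11 for all genes. With the class as a covariate in the fit of all 8 libraries, the median stayed at -0.40, 26 of the 83 had an unadjusted p under 0.05 (8.46% of all genes) and 0 passed. Apart from the classes, the comparison of all libraries without aged library 1 gave a median of -0.58 and 34 of 83 genes with an unadjusted p under 0.05 (3.86% of all genes), with 0 passing.

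Other features of the libraries varied beside the ribosomal level. Every marker of the tubule segments, podocytes and endothelium was detected, 2 of 4 markers of adrenal cortex were at 0 in all libraries, and the summed levels of all 14 marker lists overlapped between groups. The summed level of 5 red cell genes was 2700 to 10649 TPM in the adult and 933 to 14661 TPM in the aged libraries and was highest in aged library 1 (14661 TPM) and adult library 2 (10649 TPM), while adult library 3, whose ribosomal share was near that of adult library 2, had 2768 TPM. The summed level of 6 B and plasma cell genes was 47.8 to 226 TPM in the adult and 171 to 577 TPM in the aged libraries, highest in aged libraries 3 and 4 (357 and 577 TPM). None of these red cell, B or plasma cell genes was at 0 in every library. Their part in the ribosomal values was not tested.

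Ribosomal proteins without Rpl or Rps symbols and the rest of the translation machinery were compared from lists. Fau and Rack1, core ribosomal proteins with other names, had log2 fold changes of -1.02 and -0.60, and neither passed (adjusted p = 1.00 by limma). Fau, made as a fusion with a ubiquitin-like protein, read 474, 571, 588 and 500 TPM in the adult and 587, 345, 104 and 223 TPM in the aged libraries, with aged library 1 again among the adults. Among 17 translation factors and other genes with TOP messages, 15 were negative (median -0.32) and 0 passed. Eef1a1, the elongation factor that delivers transfer RNA, averaged 6321 ± 1441 and 4186 ± 1347 TPM, a log2 fold change of -0.62, and Eif3h averaged 207 ± 38.8 and 140 ± 37.1 TPM (-0.59). Of 23 initiation factors, 21 were negative (median -0.24) and 0 passed, with Eif3i at -0.56 and Eif5 at -0.57.

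Lists of genes that make ribosomes or control them had medians near that of all genes. Of 42 assembly factors tested, 32 were negative (median -0.10), and of 13 genes of RNA polymerase I and its factors, 9 were negative (median -0.08), with Nip7 at -0.58 and Polr1c at -0.64. Among 20 genes of the mTORC1 pathway and TOP regulation, 12 were negative (median -0.04). Mlst8, an mTOR partner, averaged 1.25 ± 0.983 and 2.82 ± 1.16 TPM (log2 fold change 0.81), and Myc, which drives ribosome synthesis, averaged 2.96 ± 1.83 and 4.85 ± 0.67 TPM (0.66). Of 9 genes of the stress response to ribosomal defects, 8 were negative (median -0.08), and Cdkn1a, a p53 target, had 0.39. Zfp598, which senses collided ribosomes, had the smallest p of that list and a log2 fold change of -1.09 (SE 0.48, unadjusted p = 0.0432, adjusted p = 1.00 by limma). Its levels were low and overlapped, at 5.67, 4.65, 1.12 and 1.47 TPM in the adult and 0.00713, 0.814, 2.73 and 0.423 TPM in the aged libraries. In these lists 0 genes passed.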

How the data were processed

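The authors deposited 1 table of TPM for 8 kidney libraries. Per the labels' protocols, a Qiagen kit was used for extraction and polyadenylated RNA went into Illumina TruSeq stranded libraries. Tools named in the submitters' processing notes are DESeq2 and kallisto, and the build is GRCm38, with no version, role or counting strand. Ensembl identifiers were matched to GENCODE M21 (29732 of 30153 with a symbol), whose transcripts gave lengths, GC content and copies. Genes with a mean of at least 1 TPM were tested with limma 3.58.1 in R 4.3.3 on log2(TPM + 1), with an intensity trend and Benjamini-Hochberg adjustment over all genes tested, a call being an adjusted p under 0.05. The script was tested on simulated data. Sequences came from RefSeq (starts) and GENCODE (coding).

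The table's TPM summed to between 924798 and 950974 per library, and shares are of the full TPM scale. No depth can be derived from TPM, so no counting interval is given. P-values measure the spread between single animals.

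Some items are not reported here. The members and gene lists were chosen with earlier results of these data known. Genes were named by rule: the 10 smallest unadjusted p, the 5 highest and 3 lowest means, those at 0 in some libraries, up to 4 genes per list by p, and a set of stalk, paralogous and other genes chosen by role. Rps15a, Rps20, Rps25, Rpl12, Rpl10a, Rpl4, Rps19bp1, the genes at the ends of the axis and the copies were named after their values were seen. Alternatives covered pseudocounts, filters, scaling, limma settings, the replicate number, Y-linked classes, length, copies and leaving out each library. Copies combined with another scaling and the test of the difference between Y-linked classes were added after seeing the data.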

Additional observations from a re-analysis of the deposited data

Results flagged for a closer look

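Rpl39, a large subunit protein at the peptide exit tunnel, had 1 aged library far from the other 3. It read 839 TPM in aged library 1 and 500, 489 and 459 TPM in aged libraries 2 to 4, so the gap to the next library took up most of the range of the group, by Dixon's test at 95%. It was 1 of 70 groups tested in this way, and chance marks about 1 in 20.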

How the results depend on the processing

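With copies added, the median of the 83 genes was -0.06 under quantile normalization (all genes 0.01), -0.07 with mitochondrial genes removed (all genes 0.15), -0.26 with size factors (all genes -0.01) and -0.37 with the Y-linked class as a covariate (all genes -0.11), all chosen after seeing the data. Of all genes, 1 passed with array weights, 3 among the libraries under 10 TPM of Y-linked transcripts and 60 among those above it, where 1 of the 83 (Rpl36, -1.56) passed. Leaving out 1 library at a time gave 0 to 2 genes passing (2 without aged library 1, 1 without adult library 3), 0 of the 83 in every case, and medians between -0.58 (without aged library 1) and -0.30 (without aged library 3). The number of the 83 with an unadjusted p under 0.05, 6 in all 8 libraries, was 34 without aged library 1, 9 without adult library 4, and 1 without adult library 2, aged library 3 or aged library 4. The share of TPM kept its negative difference, with quantile normalization giving no value for it.

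Small fold changes turned positive in places. Removing mitochondrial genes moved the median of all genes from -0.11 to 0.15, size factors moved it to -0.01 and quantile normalization to 0.01. Under these scalings small negative values can turn positive with that shift alone. Beyond that shift, the cause was not tested. Among the libraries under 10 TPM of Y-linked transcripts the median of all genes was instead lower, at -0.17. Genes turning positive there included Rpl22l1 (0.10), Rpl35a (0.27), Rpl3l (0.21), Rpl5 (0.28), Rps12 (0.08), Rps24 (0.28), Rps27 (0.23), Rps27a (0.09) and Rpsa (0.35). With quantile normalization they were Rpl35a (0.20), Rpl7l1 (0.07), Rps24 (0.21) and Rpsa (0.19). With mitochondrial genes removed they were Rpl35a (0.17), Rpl3l (0.21), Rpl7l1 (0.16), Rps24 (0.20), Rps27 (0.07) and Rpsa (0.27). Size factors gave Rpl3l 0.01, Rps24 0.02 and Rpsa 0.09, the removed length trend gave Rpl3l 0.02 and Rpsa 0.04, array weights gave Rps24 0.04, and a pseudocount of 0.1 gave Rpl3l 0.02. With 1 library left out, values ran from -0.37 to 0.06 for Rpl35a, from -0.30 to 0.32 for Rpl3l, from -0.35 to 0.15 for Rps24 and from -0.19 to 0.13 for Rpsa.

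Replicate numbers did not pair the samples, taking an r over 0.1 in every pair as the criterion, since same-numbered libraries had r = 0.038, 0.181, 0.486 and 0.415 in their deviations from the group means. The numbers do carry the Y-linked class in both groups. With the replicate block 0 genes and 0 of the 83 passed, the share difference was -1.69 percentage points and the median -0.40, and 16 of the 83 had an unadjusted p under 0.05 (916 of all genes). Not every library correlated best with its own number: adult library 1 did so with aged library 2 (0.572).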
